A study of Mus musculus with 2 samples.

Results

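Gadd45a, Gadd45b, Gadd45g, Cdkn1a, Mdm2, Ccng1, Btg1 and Btg2 are genes of stress-induced growth arrest, 8 of the 32285 genes counted. They were chosen by name, with earlier results of these libraries known, among them a higher level of Gadd45g in knockout astrocyte-like cells, so every ratio between the libraries is given as a description and without a test. The study made 1 single-cell library from cortex of wild-type males aged 4 months and 1 from cortex of Fam69c knockout males of that age. Cortices were pooled by genotype, dissociated enzymatically, stained with the dead-cell dye 7-AAD, sorted, and carried through 10x Genomics 3' v3.1 chemistry, which counts unique molecular identifiers (UMIs) near the 3' end of each mRNA. The labels name 7 mice, not saying whether per genotype or in all, and do not describe the knockout allele. With 1 library per genotype, the genotype cannot be told apart from the pool, the dissociation or the library.

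The Gadd45 proteins are small stress sensors that bind and activate the kinase Map3k4 upstream of p38 and Jnk, and bind Cdk1 and Pcna. Cdkn1a encodes p21, an inhibitor of cyclin-dependent kinases that p53 and other factors, the glucocorticoid receptor among them, can induce. Mdm2 is the ubiquitin ligase that degrades p53 and is itself a p53 target, Ccng1 encodes cyclin G1, another p53 target, and Btg1 and Btg2 are antiproliferative proteins that recruit the Ccr4-Not deadenylase to mRNAs. In brain, Btg2 is known as a mark of neural progenitors about to make neurons, and Btg2 and Gadd45b as rapid-response genes.

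The wild-type library held 7150 barcodes and 57166105 UMIs, and the knockout library 9182 barcodes and 75473717 UMIs, with 17 barcode sequences found in both. After filters 4940 and 7032 cells were kept, and most were given a class from marker genes, none of which is among the 8 genes. Astrocyte-like (2469 wild-type and 4236 knockout), oligodendrocyte-like (641 and 780), microglia-like (262 and 312), neuroblast-like (235 and 435) and endothelial-like cells (153 and 252) had all of their fixed markers in at least 50% of cells of both libraries, and only 2 neuron-like cells were found. In each of these 5 classes knockout cells had fewer UMIs at the median, for example 8836 against 10667 in astrocyte-like cells. Shorter transcripts ran higher in the knockout library: in astrocyte-like cells the median log2 ratio was 0.29 in the 20% of genes with the shortest transcripts and -0.37 in the 20% with the longest. Dipk1c, the present symbol of Fam69c, was at 58.7 UMIs per 1000000 in wild-type and 33.3 in knockout astrocyte-like cells, so its transcript was still counted, and a 3' count does not show whether an upstream exon was deleted.

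Gene positions are from GENCODE M21 on GRCm38, the assembly that the submitters' notes call mm10. Gadd45g lies at chr13:51846678-51848468, plus strand, with 4 exons. Gadd45b (chr10:80930073-80932204, plus) and Gadd45a (chr6:67035096-67037457, minus) also have 4 exons, and the RNAs of all 3 family members are short, between 1071 and 1284 bases. Cdkn1a is at chr17:29090976-29100727 on the plus strand and Mdm2 at chr10:117688875-117710758 on the minus strand. Ccng1 (chr11:40748552-40755311, minus), Btg1 (chr10:96617006-96622809, plus) and Btg2 (chr1:134075170-134079120, minus) complete the set. Gadd45a overlaps E230016M11Rik and Cdkn1a overlaps AC167363.2, both on the opposite strand. Cell Ranger, which the submitters' notes name, counts reads sense to a gene by default, and the settings used are not stated.

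The 250 bases before the RefSeq start site (GRCm38.p6, 5' to 3' on the gene's strand) are shown for Gadd45g and Cdkn1a, which differed most between the libraries, for Gadd45b beside Gadd45g, and for Btg2, whose level went with the immediate early genes. All 8 genes matched the table. The windows are Gadd45b chr10:80929841-80930090, Gadd45g chr13:51846425-51846674, Cdkn1a chr17:29090729-29090978 (the first of its 2 listed starts) and Btg2 chr1:134079156-134079405. Capitals mark the E-box CACGTG in both Gadd45 genes, 2 p53 half-sites in Cdkn1a and the cyclic AMP response element TGACGTCA in Btg2.
Gadd45b: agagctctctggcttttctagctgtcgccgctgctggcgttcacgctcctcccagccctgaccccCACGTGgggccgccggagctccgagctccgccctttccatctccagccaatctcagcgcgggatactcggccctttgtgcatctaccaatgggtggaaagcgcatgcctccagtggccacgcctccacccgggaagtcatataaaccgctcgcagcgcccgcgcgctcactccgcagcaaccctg
Gadd45g: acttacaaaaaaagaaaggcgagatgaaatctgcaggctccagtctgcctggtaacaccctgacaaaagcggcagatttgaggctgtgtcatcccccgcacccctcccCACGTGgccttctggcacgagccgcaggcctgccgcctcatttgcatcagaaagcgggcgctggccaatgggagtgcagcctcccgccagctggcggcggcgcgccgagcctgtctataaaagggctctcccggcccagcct
Cdkn1a: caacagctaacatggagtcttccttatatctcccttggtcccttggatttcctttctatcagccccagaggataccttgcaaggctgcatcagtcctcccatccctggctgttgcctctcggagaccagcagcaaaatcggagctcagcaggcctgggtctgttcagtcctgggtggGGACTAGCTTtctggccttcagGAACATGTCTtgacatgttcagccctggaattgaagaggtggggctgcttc
Btg2: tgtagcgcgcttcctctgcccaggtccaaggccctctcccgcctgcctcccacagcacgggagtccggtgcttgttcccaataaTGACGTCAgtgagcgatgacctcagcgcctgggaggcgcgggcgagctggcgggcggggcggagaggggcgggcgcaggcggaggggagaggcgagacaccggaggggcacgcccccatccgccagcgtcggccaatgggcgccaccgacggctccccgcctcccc
Both strands were searched in the same 250-base window of 32851 promoters. CACGTG was present in 6.02% of them, TGACGTCA in 1.55% and a p53 half-site in 7.13%. Of the 8 genes, Gadd45a, Cdkn1a, Mdm2 and Ccng1 held a p53 half-site, Gadd45b and Gadd45g held CACGTG, and Btg2 held TGACGTCA. For Cdkn1a this holds for the first listed start only, and the window before the second held no p53 half-site. The shares count each promoter window, while Cdkn1a had 2. The CACGTG match lay 185 to 180 bases before the start of Gadd45b and 142 to 137 bases before that of Gadd45g. The half-sites of Cdkn1a lay 73 to 64 and 51 to 42 bases before its first listed start, and the response element of Btg2 lay 166 to 159 bases before its start. A match of letters is a description and does not show binding.

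The 8 genes peaked in different cell classes, and most had the same peak in both libraries. Levels are UMIs per 1000000 UMIs of the class (CPM), with exact Poisson 95% intervals that cover counting error only, and they are compared within a gene and not between genes. Gadd45a stood apart in neutrophil-like cells, at 314 (241 to 400.4) among wild-type and 307 (263 to 356) among knockout cells. The next class, B cell-like cells, had 28.5 and 49.6, and the intervals did not overlap. Gadd45b was highest in neutrophil-like cells of the wild-type library (142) and in the unnamed group described further on in the knockout library (107), and lowest in neuroblast-like cells (1.71 and 1.16). Gadd45g led in neuroblast-like cells of the wild-type library (255) and in microglia-like cells of the knockout library (300.4), where neuroblast-like cells at 273 were not separated from them by their intervals. Cdkn1a was highest in endothelial-like cells, at 396 and 585, followed by monocyte-like cells at 96.1 and 155. The Btg genes were highest in immune cells. Btg2 reached 3085 and 2632 in microglia-like cells, followed by neutrophil-like (1416 and 856) and monocyte-like cells (1109 and 755). Btg1 was between 1459.8 and 2173 in neutrophil-like, B cell-like and T cell-like cells of both libraries, and at 26.5 and 29.9 in oligodendrocyte-like cells. Mdm2 and Ccng1 were highest in ependymal-like cells (127 and 148 for Mdm2, 92.0 and 75.5 for Ccng1). Only for Mdm2 in the knockout library did that interval not overlap that of the next class, microglia-like cells at 69.5. The ependymal-like, monocyte-like, neutrophil-like and mural-like classes held as few as 23 cells per library, so their levels rest on few cells.

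**Figure D1:**
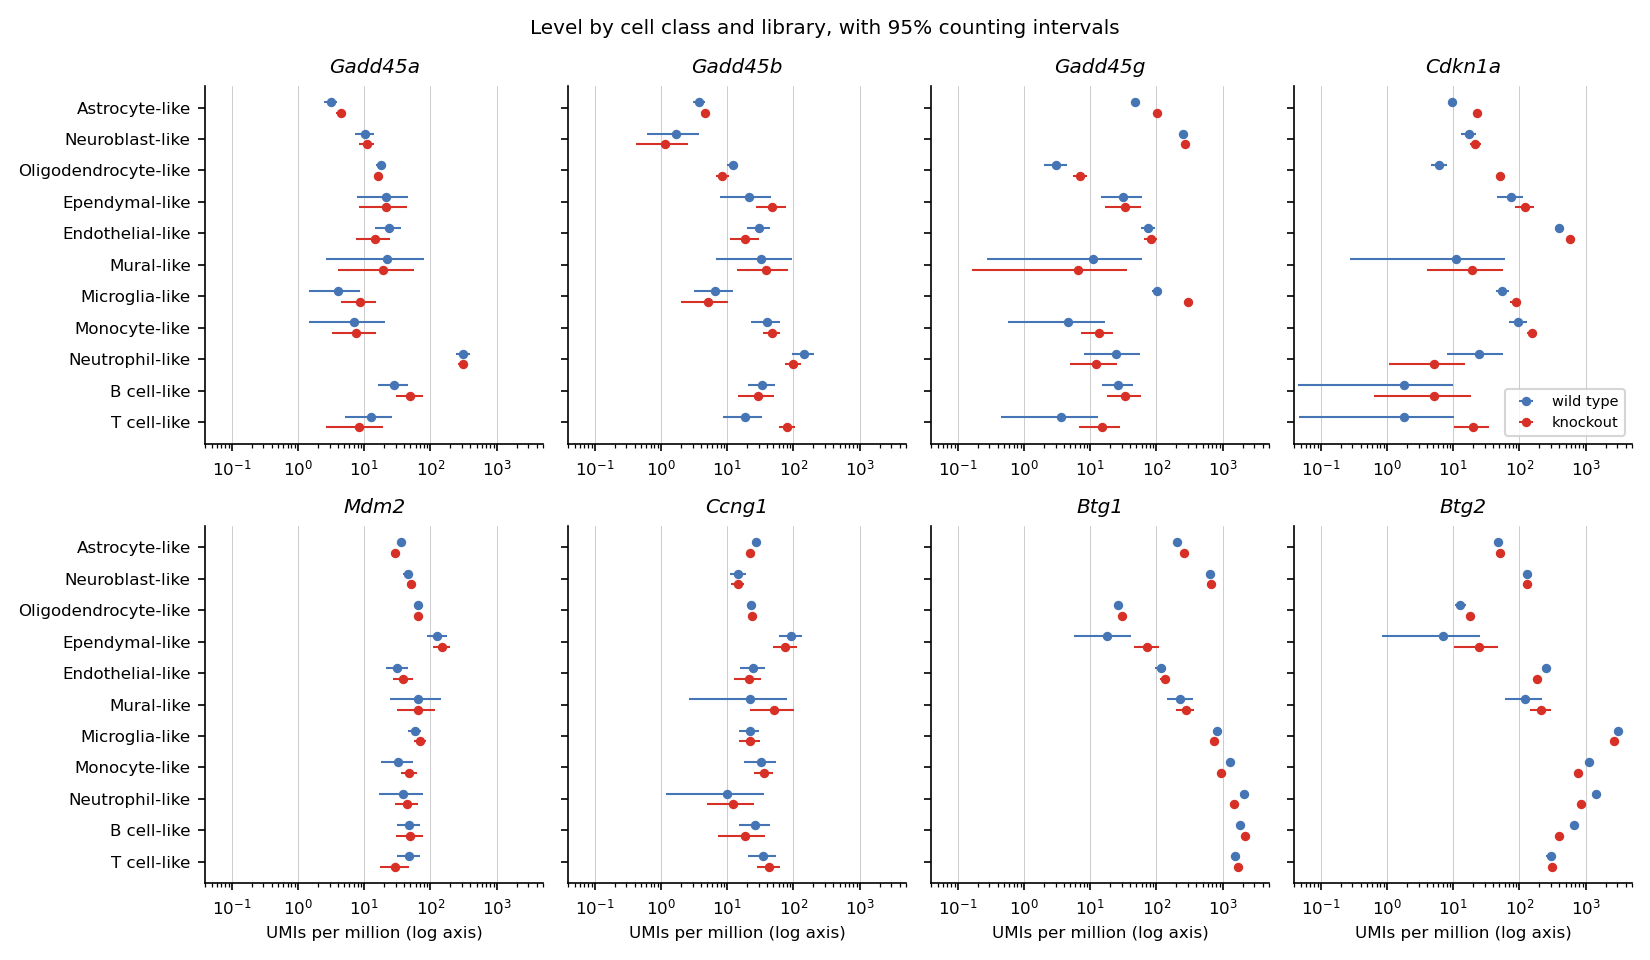
Level of each gene in 11 cell classes, as CPM on a log axis, with 1 point per library (blue wild type, red knockout) and bars for the 95% counting interval. Gadd45a peaks in neutrophil-like cells, Cdkn1a in endothelial-like cells and Btg2 in microglia-like cells in both libraries, and the red points of Cdkn1a in oligodendrocyte-like cells (50.3 against 6.09) and of Gadd45g in microglia-like cells (300.4 against 101) stand to the right of the blue ones.

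Between the libraries, Gadd45g and Cdkn1a were the genes of the set at least 1.5-fold higher in the knockout library in any of the 5 classes compared. Genes with at least 50 UMIs over both libraries of a class were compared. All 8 genes had them in astrocyte-like cells, and 2 of the 8 were at least 1.5-fold higher in the knockout library, beside 2.72% of the 13372 genes compared. None was 1.5-fold lower, beside 9.15%. In oligodendrocyte-like cells all 8 genes had 50 UMIs, and 2 were past the fold upward (2.89% of 10376 genes) and none downward (5.34%). In microglia-like cells 6 had 50 UMIs, with 2 past the fold upward (6.32% of 7205 genes) and none downward (6.72%). No gene of the set passed the fold either way in neuroblast-like cells (7 with 50 UMIs, 1.8% of 9844 genes higher and 9.9% lower) or in endothelial-like cells (5 with 50 UMIs, 6.06% of 5725 genes higher and 6.76% lower). The median log2 ratio of the set was 0.32 in astrocyte-like and 0.13 in oligodendrocyte-like cells, against -0.11 and -0.06 over all genes compared there. Scaling by trimmed means moved ratios in astrocyte-like and neuroblast-like cells by 0.15 and 0.14 on the log2 scale, upward in the knockout library. Nothing is read from these shares, since the choice of genes used the same comparison.

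**Figure D2:**
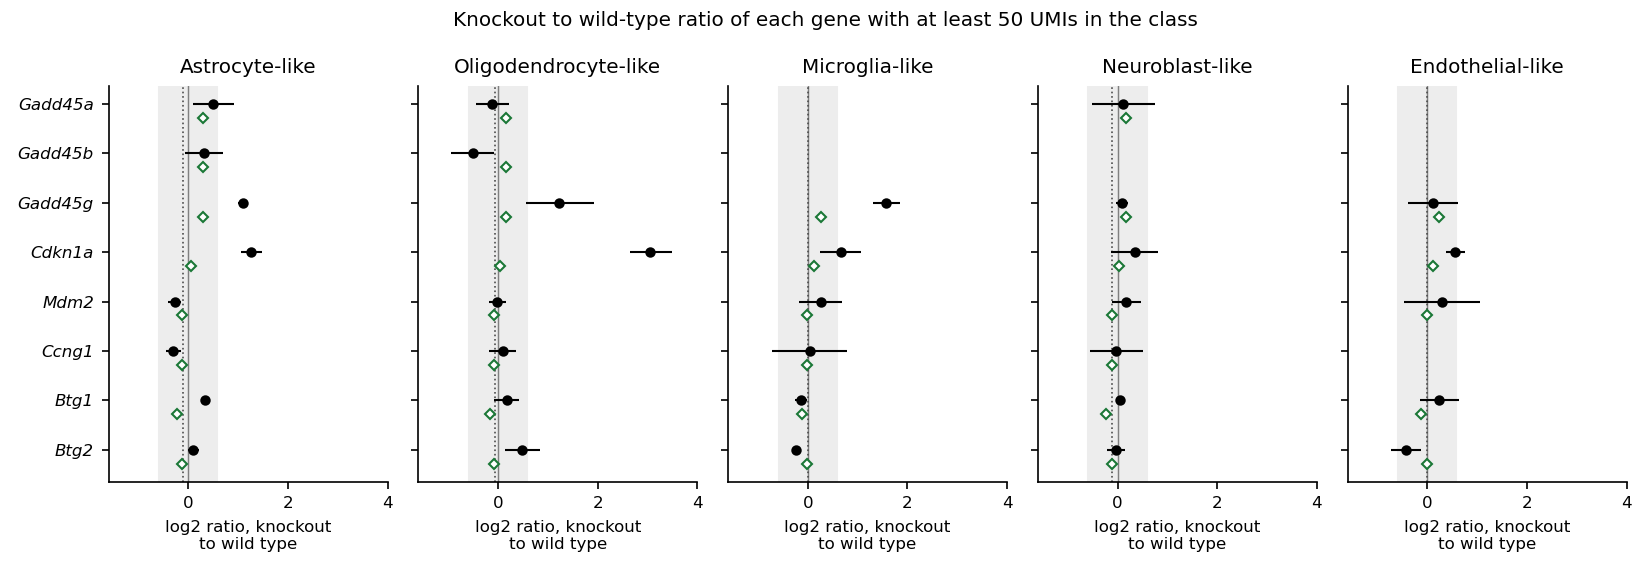
Log2 ratio of the knockout to the wild-type level for each gene with at least 50 UMIs in the class (black points, bars for the 95% counting interval), with 1.5-fold either way shaded, the median of all genes as a dotted line, and the median of genes of like transcript length as open diamonds. Cdkn1a in oligodendrocyte-like cells lies at 3.05 and Gadd45g in microglia-like cells at 1.57, while the points for Mdm2 and Ccng1 lie within the shaded band in every class.

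Gadd45g was the Gadd45 gene past 1.5-fold in the 5 classes compared, and Gadd45b passed it in T cell-like cells, outside these classes, as given below. In astrocyte-like cells it had 1170 UMIs, or 47.2 CPM, in the wild-type library and 3672 UMIs, or 101 CPM, in the knockout library. The ratio was 2.14-fold (2.00 to 2.29). A Gadd45g UMI was found in 29.8% of wild-type and 43.7% of knockout astrocyte-like cells, and, with each cell thinned to 2000 UMIs, in 7.83% (6.69 to 9.10) and 16.2%, so the share was higher at equal depth too. The libraries filled different astrocyte-like clusters, with 910 wild-type cells in cluster 1 and 1567 knockout cells in cluster 0 as the fullest. Within clusters 0, 1, 2, 4 and 11 the log2 ratio was 1.00, 0.71, 0.95, 0.84 and 1.02. Cells of cluster 11 were unlike in depth, with median UMIs of 1849.5 and 16071, and held 20 and 65 Gadd45g UMIs. The log2 ratio was least, 0.37, in cluster 3, whose cells were shallow (median UMIs 1243 and 1905). Cells with and without a UMI of Gfap, the intermediate filament of reactive astrocytes, gave log2 ratios of 1.32 and 1.04. Gadd45g belongs to the 20% of genes with the shortest transcripts, whose median log2 ratio in astrocyte-like cells was 0.29, and 6.55% of its 2414 genes were at least 1.5-fold higher. The part of transcript length in the ratio was not tested.

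In microglia-like cells Gadd45g had 153 UMIs (101 CPM) from wild-type and 415 (300.4 CPM) from knockout cells, a ratio of 2.97-fold (2.46 to 3.60). The share of cells with a UMI was 23.3% and 27.2%, and 14.6% and 18.1% at 2000 UMIs, with overlapping intervals. The libraries differed more in the UMIs per cell with one, 2.51 against 4.88. The 10 cells with most Gadd45g accounted for 49.7% of them among wild-type cells and 61.9% among knockout cells. Among the 1414 shortest transcripts here, 14.9% were at least 1.5-fold higher in the knockout library. Without the highest cell of each library the log2 ratio was 1.47, against 1.57 with it. In cluster 8, with 168 wild-type and 205 knockout cells, the levels were 102 and 329.6. In the shallower cluster 15 they were 96.1 and 62.7, from 11 and 6 UMIs. Astrocyte markers in microglia-like cells were at 2.15% and 3.54% of their astrocyte-like level, while Gadd45g was at 214% and 297% of its level there.

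In oligodendrocyte-like cells Gadd45g was low, with 3.04 and 7.13 CPM from 27 and 68 UMIs. One knockout cell held 29 of the 68 UMIs. The log2 ratio was 1.23 with the highest cell of each library and 0.60 without it, and -1.20 when each cell was weighed the same, so it has no stable direction. Astrocyte markers in these cells were at 1.47% and 2.10% of their astrocyte-like level, and Gadd45g at 6.45% and 7.06%. In neuroblast-like cells as a whole Gadd45g was at 255 and 273, 1.07-fold (0.982 to 1.16), with 1 wild-type cell holding 144 of 896 UMIs. The ratio differed between subsets of them. In cells at or below the median share of immediate early genes Gadd45g was at 336 and 211, 0.629-fold (0.553 to 0.716). Without the highest 1 or 2 cells of each library it was 0.860-fold and 1.01-fold (0.869 to 1.17), so the lower level rested on 2 wild-type cells. In cells above that median it was at 199 and 319.8, 1.61-fold (1.43 to 1.81), and 1.51-fold and 1.42-fold without those cells. The highest cells were taken over the whole class. The first set thus lost only wild-type cells and the second only knockout cells. In endothelial-like cells Gadd45g was at 75.8 and 81.8, 1.08-fold (0.765 to 1.53).

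Gadd45a and Gadd45b, the other family members, stayed under 1.5-fold between the libraries in astrocyte-like and oligodendrocyte-like cells with the main processing. Gadd45a was at 3.11 and 4.40 CPM in astrocyte-like cells, 1.42-fold (1.07 to 1.88), a log2 ratio of 0.50. That ratio was -0.27 at an equal depth of 2000 UMIs a cell and 0.01 with classes taken from clusters. Over the alternatives described further on it reached 0.65, where 1.5-fold is 0.585. Gadd45a was at 17.7 and 16.4 in oligodendrocyte-like cells. Gadd45b, which is known as an activity-regulated gene of neurons, was at 3.79 and 4.70 in astrocyte-like cells and at 12.1 and 8.49 in oligodendrocyte-like cells, 0.704-fold (0.521 to 0.949). Over the alternatives the log2 ratio of Gadd45b in oligodendrocyte-like cells ran from -0.86 to -0.23, past 1.5-fold at its lowest. Its largest ratio was in T cell-like cells, with 10 UMIs among 60 wild-type and 49 among 91 knockout cells, 4.40-fold (2.20 to 9.75). Of the 49 UMIs, 20 and 14 were in single knockout cells. The ratio was 3.24-fold without the highest cell of each library and 2.28-fold (0.835 to 7.16) without the highest 2, from 6 and 15 UMIs. A group of 42 and 106 cells led by Ccn3, Mgp and Prg4, which was given no cell type name, had Gadd45b at 127 and 107 and Gadd45g at 122 and 184.

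Cdkn1a, which encodes p21, gave the largest ratio among the genes with 50 UMIs, in oligodendrocyte-like cells. It had 54 UMIs, or 6.09 CPM (4.57 to 7.94), in the wild-type and 480 UMIs, or 50.3 CPM (45.9 to 55.0), in the knockout library. The ratio was 8.27-fold (6.23 to 11.2). A Cdkn1a UMI was found in 26 of 641 wild-type cells, 4.06% (2.67 to 5.89), and in 135 of 780 knockout cells, 17.3% (14.7 to 20.1). At 2000 UMIs a cell the shares were 1.57% (0.719 to 2.96) and 7.79% (5.96 to 9.95). There were 8 wild-type and 65 knockout cells with 3 or more UMIs, and the 10 highest cells held 66.7% and 23.8% of the UMIs. The UMIs of the knockout library were thus spread over many cells, although 82.7% of its oligodendrocyte-like cells had none. Cdkn1a is in the second-shortest 20% of transcripts, whose median log2 ratio in these cells was 0.04, with 3.33% at least 1.5-fold higher.

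The difference was present in each subset of oligodendrocyte-like cells that was separated. Cluster 5, with 470 wild-type and 570 knockout cells, had 4.16 and 37.2 CPM, and cluster 12, with 77 and 144, had 15.7 and 96.8. Klk6, a protease of a subset of mature oligodendrocytes, marked cells with more Cdkn1a in both libraries: 11.5 with and 4.77 without a Klk6 UMI among wild-type cells, and 96.8 with and 39.5 without among knockout cells. Within a library this was a 2.41-fold (1.32 to 4.31) and a 2.45-fold (2.02 to 2.96) difference. Cells with a Klk6 UMI were deeper, with median UMIs of 19624.5 and 15349 against 13378 and 10870. They numbered 92 and 119.

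The markers of the class with most Cdkn1a, endothelial cells, were near 0 in oligodendrocyte-like cells, at 0.055% and 0.042% of their endothelial-like level. Cdkn1a was there at 1.54% and 8.60% of its own endothelial-like level. Knockout oligodendrocyte-like cells with 3 or more Cdkn1a UMIs had oligodendrocyte markers at 58865 CPM, against 59067 in those with none, and endothelial markers at 8.85 against 11.4. Neuroblast markers were higher in them, at 257 against 116, as was the median doublet score, 0.029 against 0.018, and the part of either in the result was not tested. Their median mitochondrial share was 3.73% against 4.75%. In cells below the median share of immediate early genes Cdkn1a was at 8.79 and 58.9, and in cells above it at 3.51 and 40.7, so the libraries were apart in both sets.

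Among knockout oligodendrocyte-like cells, 6 of 7 glucocorticoid-induced genes examined were found in a larger share of cells with Cdkn1a than of cells without, as were 48.9% of the 7041 genes found in at least 20 cells. At 2000 UMIs a cell, Zbtb16, a zinc-finger repressor, was found in 15.5% of the 58 cells with Cdkn1a and in 3.78% of the others. Fkbp5, a co-chaperone of the glucocorticoid receptor, was found in 10.3% and 3.49%. Sgk1, a kinase induced by the hormone, was found in 79.3% and 64.3%, while Tsc22d3, the exception, went the other way with 15.5% and 21.3%. Mdm2, which shares its control by p53 with Cdkn1a, was found in 10.3% and 10.9%. With all UMIs used, knockout cells with 3 or more Cdkn1a UMIs had Mdm2 at 70.8 CPM, against 64.9 in those with none. Ccng1 was at 24.4 against 23.8, Gadd45a at 23.2 against 15.5 and Btg2 at 37.6 against 16.6. In the 8 such wild-type cells Gadd45a and Btg2 went the other way, at 11.5 against 18.0 and 5.73 against 13.0. These values carry no test and come from genes singled out after their values were seen, and each genotype has 1 library.

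**Figure D3:**
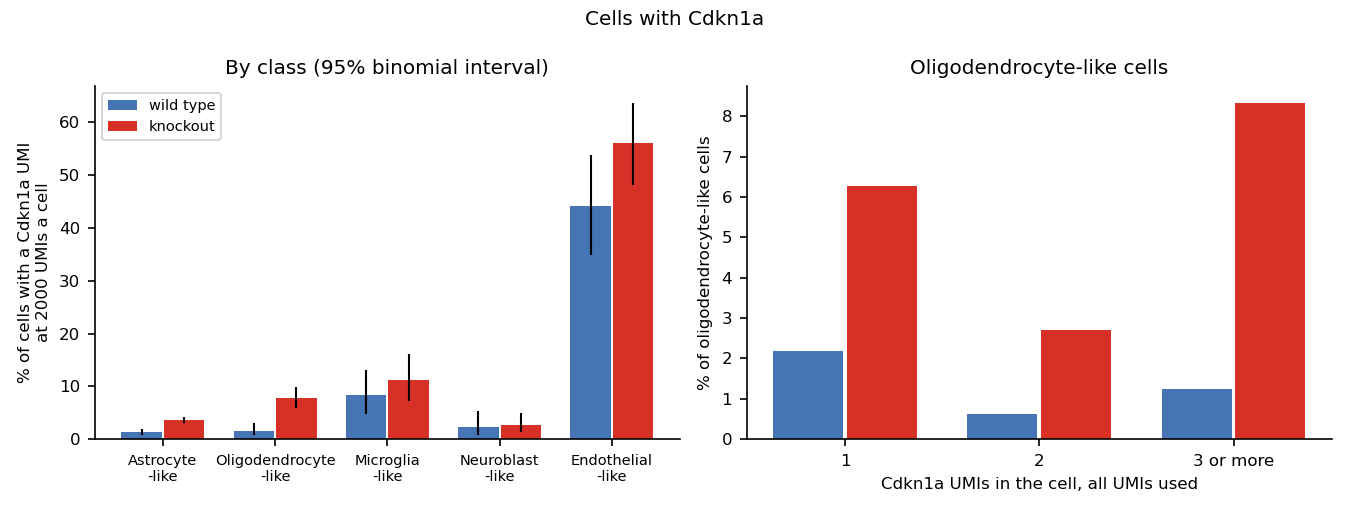
Left, percentage of cells with a Cdkn1a UMI in 5 classes after thinning each cell to 2000 UMIs, with bars from 0, exact binomial 95% intervals as lines, and blue and red for wild type and knockout. Right, percentage of oligodendrocyte-like cells holding 1, 2, or 3 or more Cdkn1a UMIs, where the last group is 8.33% of knockout and 1.25% of wild-type cells.

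In the other 4 classes compared the Cdkn1a ratio was smaller. Astrocyte-like cells had 239 UMIs (9.64 CPM) against 838 (23.1 CPM) in knockout cells, 2.39-fold (2.07 to 2.77). The share of cells with a UMI at 2000 UMIs was 1.26% (0.814 to 1.85) and 3.61% (3.05 to 4.24). In astrocyte-like clusters 0, 1, 2, 4 and 11 the log2 ratio was 1.06, 1.00, 1.39, 1.81 and 2.77, the last 2 from as few as 4 and 2 wild-type UMIs, and in the shallow cluster 3 it was 0.22. Endothelial-like cells, where Cdkn1a was highest, had 396 and 585, 1.48-fold (1.29 to 1.70), just under the 1.5-fold line. Microglia-like cells had 55.5 and 87.6, 1.58-fold (1.18 to 2.11), just over it. That call rested on 1 knockout cell with 37 of 121 UMIs: without the highest cell of each library the log2 ratio was 0.26, and weighing each cell the same gave -0.07. The share of cells with a UMI was 15.3% and 13.1%, and 8.33% (4.84 to 13.2) and 11.1% (7.25 to 16.1) at 2000 UMIs a cell. Cells in which Ccl3 and Ccl4, chemokines of activated microglia, were above the median had 2.70-fold (1.65 to 4.57) more Cdkn1a among wild-type and 3.05-fold (2.08 to 4.55) more among knockout cells. Without the highest cell of each library these were 2.40-fold (1.45 to 4.10) and 1.65-fold (1.05 to 2.59). Neuroblast-like cells had 17.1 and 21.7, 1.27-fold (0.919 to 1.77).

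Mdm2 and Ccng1, p53 targets like Cdkn1a, had near-equal levels where Cdkn1a differed most. In oligodendrocyte-like cells Mdm2 was at 65.0 and 64.4 CPM, 0.990-fold (0.882 to 1.11). Ccng1 was at 22.7 and 24.1 there, 1.06-fold (0.877 to 1.29). In astrocyte-like cells both were lower in the knockout library, Mdm2 at 35.6 and 29.6 (log2 ratio -0.27) and Ccng1 at 27.7 and 22.5 (-0.30), where the median of genes of like transcript length was -0.13. In microglia-like and neuroblast-like cells the intervals of both ratios spanned 1. The upper bounds in oligodendrocyte-like cells, 1.11 and 1.29, were below the lower bound for Cdkn1a, 6.23. Of the other genes of the set, Btg2 was 1.40-fold (1.10 to 1.79) and Gadd45a 0.924-fold (0.736 to 1.16) in these cells. The part of p53 in any of these levels was not tested.

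Other p53 targets, taken as a list, sat near the middle of all genes. Of the 28 genes of p53 and its other targets, 22 had 50 UMIs in astrocyte-like cells, of which 9 were higher and 13 lower in knockout cells (median log2 ratio -0.08). Of all genes compared there, 39.9% were higher, with a median of -0.11. Of the list, Dcxr, a sugar reductase, alone was past 1.5-fold (27.4 and 42.4). Bax, the pore-forming death protein, was at 75.9 and 97.7, and Mdm4, the Mdm2 partner, at 117 and 80.7. In oligodendrocyte-like cells 8 of 20 were higher, none past the fold, and the median was -0.03, where 42.6% of all genes were higher. Phlda3, an inhibitor of Akt signalling, was at 226 and 293 there. In microglia-like cells 8 of 16 were higher, where 50.9% of all genes were. None was past the fold upward there and 2 were downward (6.72% of all genes). The other inhibitors of cyclin-dependent kinases gave no ratio past 1.5-fold in astrocyte-like, oligodendrocyte-like or neuroblast-like cells. In endothelial-like cells 1 of 4 did, Cdkn2d at 31.7 and 74.1. Cdkn1b, which encodes p27, was at 145 and 127 in oligodendrocyte-like, 120 and 117 in astrocyte-like and 502 and 366 in neuroblast-like cells. Of 12 Gadd45 partners and relatives, 6 were higher and 6 lower in astrocyte-like cells, with a median of 0.03. Of these, 1 was past 1.5-fold downward, as were 9.15% of all genes. Map3k4, the kinase that Gadd45 proteins activate, was at 31.5 and 23.4.

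Glucocorticoid-induced genes were mostly higher in knockout oligodendrocyte-like, astrocyte-like and microglia-like cells. In oligodendrocyte-like cells 8 of 9 were higher, 4 of them past 1.5-fold, with a median log2 ratio of 0.53, where 42.6% of all genes compared were higher. Sgk1 was at 473 and 849, Ddit4, an inhibitor of mTOR signalling, at 75.1 and 128, and Fkbp5 at 9.80 and 17.3. In astrocyte-like cells 7 of 9 were higher, 3 past the fold, with a median of 0.54, where 39.9% of all genes were higher. Fkbp5 was at 4.48 and 11.1 there, and Tsc22d3 at 224 and 359. In microglia-like cells 6 of 7 were higher, with a median of 0.49, where 50.9% of all genes were higher, and Ddit4 was at 23.1 and 93.4. In neuroblast-like cells 3 of 6 were higher, with a median of 0.10, where 38.6% of all genes were higher. In endothelial-like cells 5 of 5 were higher, with a median of 0.31, where 50.4% of all genes were higher. Immediate early genes ran the other way: 8 of 10 were lower in knockout oligodendrocyte-like cells, 4 past 1.5-fold. Of all genes compared there, 42.6% were higher and 5.34% were past 1.5-fold downward. Fos was at 96.7 and 44.0. The lists were chosen with results of these libraries known. The part of either list in the levels of Cdkn1a and Gadd45g was not tested.

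Btg1 and Btg2, the antiproliferative pair, differed between the libraries by less than 1.5-fold in each of the 5 classes with the main processing. Btg1 had 5133 UMIs (207 CPM) in wild-type and 9519 (262 CPM) in knockout astrocyte-like cells, 1.26-fold (1.22 to 1.31), where genes of like transcript length had a median log2 ratio of -0.23. In microglia-like cells it was slightly lower, 819 and 746, a log2 ratio of -0.13 where genes of like transcript length had a median of -0.12. Btg2 was at 48.2 and 51.7 in astrocyte-like cells, and in microglia-like cells at 3085 and 2632, 0.853-fold (0.817 to 0.891). Endothelial-like cells had Btg2 at 248.9 and 185. In oligodendrocyte-like cells it was at 12.8 and 18.0, 1.40-fold (1.10 to 1.79), where 2 knockout cells held 18 and 16 of the 172 UMIs. In oligodendrocyte-like cluster 5, with 470 wild-type and 570 knockout cells, Btg2 was at 12.6 and 13.9, 1.10-fold (0.820 to 1.49). Of the 13 other Btg and Tob genes and deadenylase subunits, 5 of 12 were higher in astrocyte-like cells, with a median of -0.06, where 39.9% of all genes were higher. Of these 12, 1 was past 1.5-fold downward, as were 9.15% of all genes. Tob1 was at 99.7 and 101 and Cnot7, a catalytic subunit of the deadenylase, at 59.4 and 39.3.

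Btg2 in microglia-like cells moved with the immediate early genes. Cells below the median share of those genes had Btg2 at 952 and cells above it at 4529.9 in the wild-type library, and at 799 and 4395 in the knockout library. At 2000 UMIs a cell, Fos was found in 59.4% of wild-type cells with Btg2 and in 10.8% of those without, and in 53.6% and 4.17% in the knockout library. Atf3, another stress-response factor, was found in 49.7% and 2.70%, and in 36.9% and 6.25%. Gadd45g was higher in the cells above the median too, at 139 against 45.8 among wild-type and 436 against 159 among knockout cells, so the libraries were apart in both sets of cells. Enzymatic dissociation is known to induce immediate early genes in microglia, and its part in these levels was not tested.

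In neuroblast-like cells the genes split by cycling state. Of these cells, 113 wild-type and 199 knockout cells held UMIs of 3 or more of 10 cycling markers, such as Top2a and Mki67, and 77 and 150 held none. Gadd45g was at 58.5 and 91.1 in cells with no cycling marker and at 323 and 323 in cells with 3 or more, 5.52-fold (3.81 to 8.29) and 3.55-fold (2.77 to 4.61) higher. Without the highest cell of each library the cells with 3 or more had 272 and 308, 1.13-fold (1.03 to 1.24) between the libraries. In cells with 1 or 2 cycling markers the libraries were apart, with Gadd45g at 82.0 and 188, 2.30-fold (1.58 to 3.43), from 36 and 128 UMIs. Btg2 was at 50.1 and 124 in those cells, 2.47-fold (1.53 to 4.15). Btg2 was 2.39-fold and 1.78-fold higher in the cells with 3 or more markers than in those with none. Btg1 was the reverse, at 1327 and 1346 without cycling markers and at 399.5 and 421 with 3 or more. Cdkn1a was at 21.0 and 29.2 in cycling cells and at 10.1 and 2.76 in the others, the latter from only 5 and 2 UMIs. Cycling cells were deeper, with median UMIs of 22574 and 17774 against 4599 and 4271.5, and the part of depth was not tested. The share of cycling cells was set by detection of the markers and was not compared between the libraries.

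**Figure D4:**
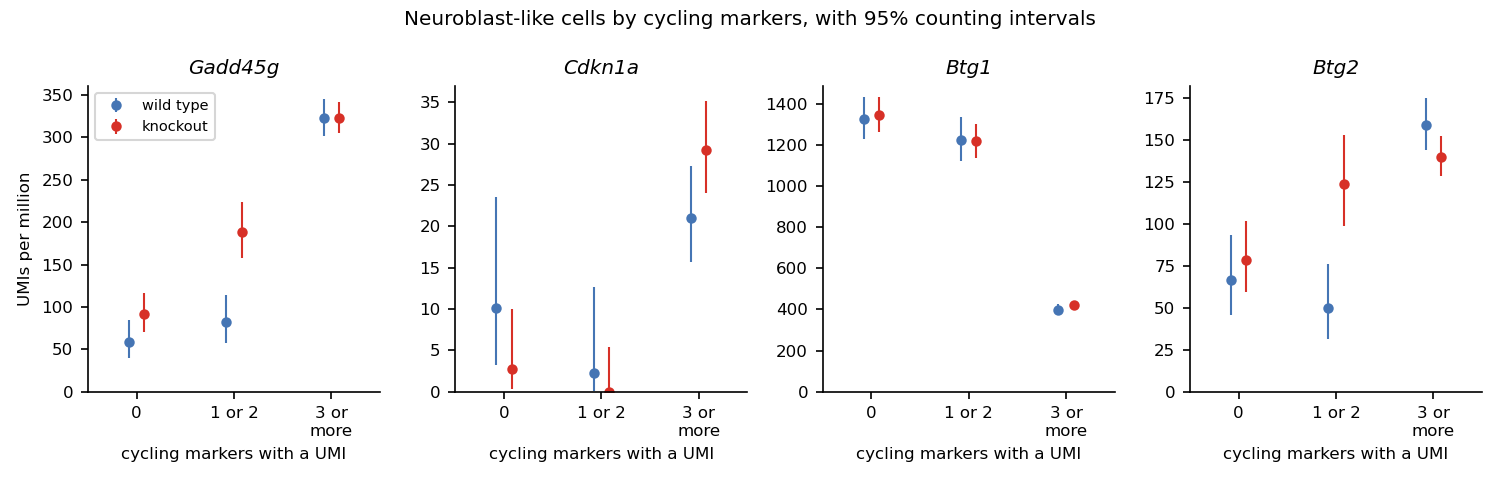
Levels of 4 genes, in CPM, in neuroblast-like cells with 0, 1 or 2, and 3 or more of 10 cycling markers detected, with 1 point per library (blue wild type, red knockout) and 95% counting intervals. With every cell included, Gadd45g is highest with 3 or more markers (323 in each library) and Btg1 lowest (399.5 and 421).

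The genes whose profiles over classes were most like those of the set are given as a description, over 14 profiles from 7 classes in 2 libraries, which share cells' depth and dissociation. Btg2 was most like Ier5, an immediate early response gene (Pearson r 0.98), then Arpc4 and Ptpn1. Cdkn1a was most like Rab11a (0.96) and Alas1 (0.95). Btg1 was most like Taf1d (0.96) and Rbm39 (0.94), and Gadd45g most like Tmem39b (0.93) and Ckap4 (0.93). The best matches of Gadd45a (Mfap1b, 0.89), Gadd45b (Rilpl2, 0.89), Mdm2 (Narf, 0.87) and Ccng1 (Sidt2, 0.84) were weaker. Within the set the highest value was 0.69, between Btg1 and Btg2, and Cdkn1a had -0.17 with Mdm2.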

How the data were processed

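Each library's deposited matrix gives UMI counts by gene and barcode, not normalized. The submitters' processing notes name Cell Ranger 4.0.0, Seurat 3.0, R 4.0.3 and the build mm10, but no annotation release. Barcodes under 500 genes or over 20% mitochondrial UMIs were dropped. The automatic doublet call marked 0 wild-type and 164 knockout cells and had not worked in the wild-type library, so the cells with the highest Scrublet scores were removed at 0.8% per 1000 cells (212 and 448). Each cell was given the class of its highest fixed-marker score (at least 0.3, 3 markers, next class at most 0.5 of it), which left 766 wild-type cells (median 1440 UMIs) and 426 knockout cells (4971.5) without a class. Counts were summed per class and library and scaled to 1000000. Intervals are 95% (Poisson for levels, conditional binomial for ratios, Clopper-Pearson for shares) and cover counting error only. The 8 genes, gene lists and named genes were chosen with earlier results of these data known. Besides the 8, the text names genes of the lists with the largest ratios or highest levels, and the most alike profiles (of up to 3 per gene). Co-detected genes and the cell subsets were chosen after values were seen. The calculations were tested on simulated data, drawn as independent Poisson counts per gene from class sums. The simulation held no single cells with many UMIs of a gene, so it cannot show whether the intervals hold for these cells. Python 3.11.15, scanpy 1.11.5 and scipy 1.17.1 were used. Promoters are from RefSeq (GRCm38.p6), gene models from GENCODE M21, which held 99.8% of the gene identifiers.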

Additional observations from a re-analysis of the deposited data

Results flagged for a closer look

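The Btg genes went in opposite directions in pairs of classes, with counting intervals on opposite sides of no change. For Btg1 the log2 ratio was 0.34 in astrocyte-like and -0.13 in microglia-like cells, a difference of 0.47. Genes of like transcript length had medians of -0.23 and -0.12 there, so in microglia-like cells Btg1 lay near that median. For Btg2 it was 0.49 in oligodendrocyte-like cells and -0.43 in endothelial-like cells (endothelial minus oligodendrocyte -0.92), and -0.23 in microglia-like cells (microglia minus oligodendrocyte -0.72). In oligodendrocyte-like cluster 5, with 470 wild-type and 570 knockout cells, the log2 ratio of Btg2 was 0.14 (-0.29 to 0.57). The differences between classes were not tested, since each genotype has 1 library.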

How the results depend on the processing

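Each ratio was recomputed under 11 alternatives, 2 of them (the same mix of clusters, and leaving out each library's highest cell for the gene) chosen after seeing the data. Subsets of cells were also recomputed without the 1 or 2 cells highest for the gene in the whole class and library. Not every subset held such a cell in both libraries, and this step was also chosen after seeing the data. Of the 34 ratios, 20 kept their sign in all 11. The log2 ratio ranged from 2.74 to 3.15 for Cdkn1a in oligodendrocyte-like cells, from 0.81 to 1.57 for Cdkn1a and from 0.82 to 1.25 for Gadd45g in astrocyte-like cells, and from 0.93 to 1.80 for Gadd45g in microglia-like cells. With each cell weighed the same, Cdkn1a in microglia-like cells turned to -0.074 and Gadd45g in oligodendrocyte-like cells to -1.20. The number of genes at least 1.5-fold higher in the knockout library fell from 2 to 1 in microglia-like and in oligodendrocyte-like cells when each cell was weighed the same, and in microglia-like cells also without the highest cells. It went from 0 to 1 in neuroblast-like cells under equal weights per cell, at equal depth, with classes from clusters and in cells of low immediate early gene share. In endothelial-like cells it went from 0 to 2 under equal weights per cell and at equal depth, and to 1 with classes from clusters, in cells of low immediate early gene share and without the highest cells. The number at least 1.5-fold lower went from 0 to 1 in neuroblast-like and oligodendrocyte-like cells under equal weights and at equal depth, and to 2 in neuroblast-like cells of low immediate early gene share. In that last set Gadd45g was 0.629-fold and Btg2 0.489-fold. Without the highest 2 cells of each library they were 1.01-fold (0.869 to 1.17) and 0.892-fold (0.692 to 1.15). The cause was not tested, beyond the cells left out by construction. No paired analysis was possible because each genotype has 1 library, and no library could be left out. Genes with few UMIs, such as Gadd45a and Gadd45b in microglia-like cells (18 and 17 UMIs over both libraries), could not be compared at this depth.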

Other observations

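The 3' untranslated ends of these genes differ in ATTTA, a pentamer of unstable mRNAs. Mdm2 has 8 copies in 1335 bases, Ccng1 8 in 2316, Btg1 11 in 4166, Btg2 5 in 2199, Cdkn1a 4 in 1334 and Gadd45a 2 in 563. Gadd45b and Gadd45g have none. Among 19479 genes with an end of at least 100 bases, the median was 1.35 copies per kilobase, and Mdm2, at 5.99, was above 95.1% of them.

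Among blood-lineage cells, Cdkn1a in monocyte-like cells had 41 UMIs in 28 wild-type cells and 162 in 90 knockout cells, 96.1 and 155 CPM. Btg1 and Btg2 in neutrophil-like cells were at 2131 and 1459.8, and at 1416 and 856, from 29 wild-type and 91 knockout cells. These are 0.685-fold (0.609 to 0.771) and 0.605-fold (0.522 to 0.702), and Btg2 was also lower in knockout B cell-like cells (660.4 and 402, 0.609-fold, 0.501 to 0.737) and monocyte-like cells (1109 and 755, 0.681-fold, 0.607 to 0.765). Neutrophil markers took a median of 181415 CPM in wild-type and 311351 in knockout neutrophil-like cells, which leaves less of the total for other genes. The part of this in the ratios was not tested. In wild-type monocyte-like cells the 10 highest cells held 81.2% of the Btg2 UMIs. No share over all genes was computed for these 2 classes. In B cell-like cells 40.1% of all genes compared were higher, with a median log2 ratio of -0.13. In T cell-like cells Btg2 was at 295 and 309.9, with an interval of the ratio from 0.845 to 1.30. In cells without a class Gadd45g was at 164 and 205 and Cdkn1a at 72.5 and 74.7.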
